A study of Mus musculus with 6 samples.

Results

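Siglecs are surface receptors of the immunoglobulin superfamily that bind sialic acids, the acidic sugars at the tips of glycan chains on most mammalian cells. Many of them carry an ITIM, a tyrosine motif in the cytoplasmic tail that recruits the phosphatase SHP-1 and dampens activation of myeloid cells and B cells, whereas sialoadhesin (CD169, the product of Siglec1) lacks one and works as an adhesion receptor on macrophages. The account below covers 5 genes of the family, Siglec1, Siglece, Siglecf, Siglecg and Cd33, chosen by name, out of 55359 gene rows in a read count table. Each symbol matched a single Ensembl ID, and all 5 passed the filter on low counts.

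The cultures were mouse myeloid-derived suppressor cells (MDSCs), immature myeloid cells that restrain T cells, cultured for 4 days from C57BL/6 mouse marrow in GM-CSF and IL-6 (40 ng/ml each), after which polymorphonuclear cells were taken with an isolation kit. The mtDNA group had 3 libraries from cells transfected with mitochondrial DNA at 250 ng/ml with a lipid reagent for 12 h, and the blank group had 3 libraries from cells labelled blank. Whether blank cells received the reagent is not given in the labels, and no library held cells given another DNA, so the DNA, its mitochondrial origin and the reagent cannot be told apart. Nothing in the labels ties the libraries to separate mice or cultures, and the p-values rest on library-to-library spread that may be purely technical.

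Libraries held 4018360 to 4911103 counted reads. Levels are given in CPM, read counts divided by library size after edgeR's TMM scaling, and a single read came to 0.200 to 0.256 CPM. Of 11190 genes tested with edgeR's quasi-likelihood test, 17.8% passed a Benjamini-Hochberg adjusted p under 0.05 (1327 higher and 669 lower in mtDNA cells; 970 and 1504 with upper-quartile scaling, 861 and 2356 with library totals alone). All 12 neutrophil markers on the list used passed the count filter, with a summed level of 7953 to 8573 CPM in mtDNA libraries and 7649 to 8070 CPM in blank libraries. Mmp8, a collagenase of neutrophil granules, was the highest, at 2558 ± 52.4 CPM in mtDNA cells and 2545 ± 17.5 CPM in blank cells (SD, n = 3 libraries per group), whereas Ly6g, the antigen that defines mouse neutrophils, was among the lowest, at 5.81 ± 1.14 CPM in mtDNA cells and 4.87 ± 0.95 CPM in blank cells. All 11 monocyte and macrophage markers passed as well, and Csf1r, the receptor for M-CSF, averaged 1552 CPM in mtDNA cells and 1424 CPM in blank cells, so the labelled polymorphonuclear fraction also carried abundant monocyte-type RNA. In such bulk samples a change in the number of cells of a type and a change in RNA per cell cannot be told apart.

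Of the 5 Siglec genes, Siglec1 rose 11.6-fold (95% interval 9.15 to 14.7) and was the only one that passed the test, 1 of 5 against the background of 17.8% of all genes. The other 4 had log2 fold changes between -0.29 and -0.04, and none of them passed. The median log2 fold change was -0.13 over the 5 genes and -0.01 over all genes tested.

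Siglec1 (ENSMUSG00000027322), whose product is a long-stemmed receptor without a signalling motif and is known in human and mouse monocytes and macrophages as an interferon-inducible gene, had 170, 206 and 203 reads in mtDNA libraries 1 to 3, against 22, 18 and 10 reads in blank libraries 1 to 3. Scaled to library size these were 43.4, 44.1 and 43.0 CPM in mtDNA cells and 5.18, 3.61 and 2.39 CPM in blank cells. The mtDNA libraries lay within about 1 CPM of each other, the blank libraries were spread more widely relative to their mean, and the groups were far apart. The means were 43.5 ± 0.58 CPM in mtDNA cells and 3.72 ± 1.40 CPM in blank cells (SD, n = 3 each), and the difference on the log2 scale was 3.54 ± 0.17 (SE, edgeR adjusted p = 1.95e-13). By fold change Siglec1 ranked 41 among the 11190 genes tested. Leaving out blank 3, the library with the fewest Siglec1 reads, gave a log2 fold change of 3.32, and leaving out blank 1, with the most, gave 3.82.

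**Figure D1:**
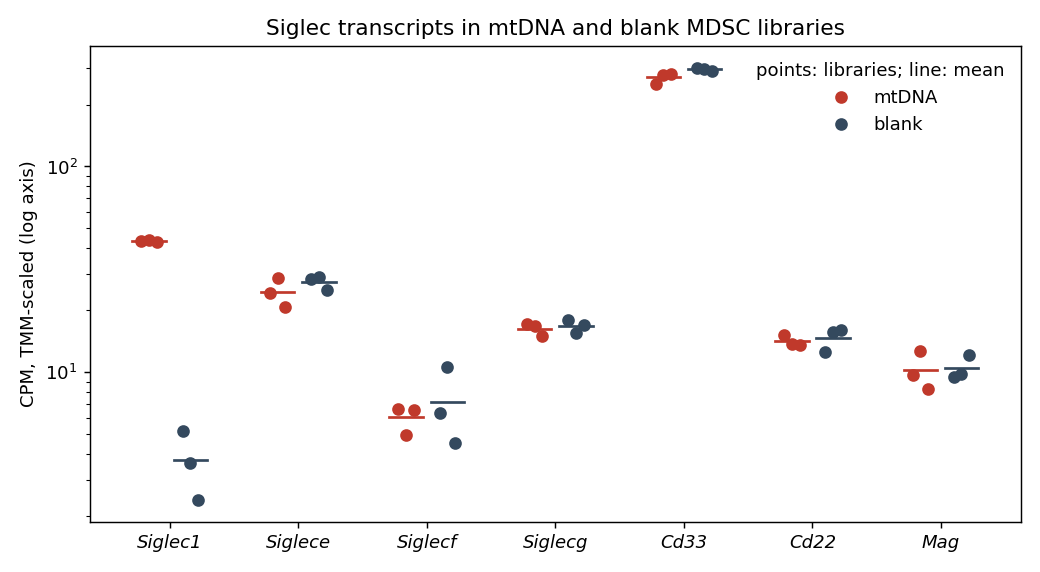
TMM-scaled CPM (log axis) of the 5 Siglec genes and of Cd22 and Mag in each library, with mtDNA libraries left of blank libraries and a line at each group mean. Siglec1 stands at 43.0 to 44.1 CPM in mtDNA cells and 2.39 to 5.18 CPM in blank cells, while none of the other genes shown passed the test.

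Genes that mark monocytes and macrophages moved in the same libraries. Of the 11 on the list, 7 rose and 0 fell, against 11.9% higher and 5.98% lower of all genes tested, with a list median of log2 0.18. With library totals, and with upper-quartile factors, 4 rose and 0 fell, with medians of log2 0.06 and 0.10. With a single library left out, 4 to 6 rose and 0 fell. Their summed level was 4634 to 4941 CPM in mtDNA libraries and 3638 to 3772 CPM in blank libraries. None of the 11 was at 0. Fcgr1, which encodes the high-affinity IgG receptor CD64, averaged 327 ± 41.8 CPM in mtDNA cells and 56.4 ± 12.2 CPM in blank cells (5.82-fold, edgeR adjusted p = 2.78e-14). Mertk, a receptor for uptake of dying cells, rose 2.09-fold, and Csf1r rose 1.09-fold (edgeR adjusted p = 0.0442; 0.938 with library totals). Adgre1, which encodes F4/80, had 535 ± 9.97 CPM in mtDNA cells and 501 ± 18.0 CPM in blank cells (edgeR adjusted p = 0.203). Of the 12 neutrophil markers, 1 rose and 0 fell (all genes: 11.9% higher and 5.98% lower). With library totals 0 of them rose and 4 fell, and with upper-quartile factors 0 rose and 2 fell. The part of the monocyte, macrophage and neutrophil markers in the Siglec1 difference was not tested.

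The CD33-related Siglecs, which in the mouse lie in a gene cluster on one chromosome and include several ITIM-bearing inhibitory receptors, did not pass the test. Cd33 (ENSMUSG00000004609), in humans a surface marker and inhibitory receptor of myeloid cells, had the most reads of the 5, with 989, 1298 and 1333 reads in the mtDNA libraries and 1286, 1485 and 1221 in the blank libraries. Its CPM values were 253, 278 and 282 in mtDNA cells and 303, 298 and 292 in blank cells. The mtDNA values were all below the blank values, by a narrow margin, a separation that 33.5% of all tested genes also showed. The log2 fold change was -0.13 ± 0.055 (SE; 0.913-fold, 95% interval 0.843 to 0.987) and did not pass after adjustment (edgeR adjusted p = 0.104). The call depended on the scaling between libraries, since Cd33 passed at log2 -0.21 with upper-quartile factors (edgeR adjusted p = 0.00889) and at log2 -0.25 with library totals (edgeR adjusted p = 0.00199). Those scalings moved the median of all genes to log2 -0.09 and -0.13.

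Siglece (ENSMUSG00000030474) encodes Siglec-E, an inhibitory receptor of mouse neutrophils and macrophages. It had 24.3, 28.7 and 20.7 CPM in mtDNA libraries and 28.3, 28.9 and 25.1 CPM in blank libraries, from 327 and 369 reads per group. The ranges overlapped through mtDNA 2, and the difference was within the spread between libraries (log2 -0.16 ± 0.12 SE, edgeR adjusted p = 0.428). The 95% interval of the fold, 0.748 to 1.07, lies far below the fold of Siglec1 and reaches to either side of no change.

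Siglecg (ENSMUSG00000030468) encodes Siglec-G, known as a restraint on B cell receptor signalling, and its CPM values were 17.1, 16.7 and 15.0 in mtDNA cells and 17.9, 15.4 and 17.0 in blank cells. The ranges overlapped, with mtDNA 3 the lowest and blank 1 the highest of the 6 libraries (log2 -0.04 ± 0.14 SE, 95% interval of the fold 0.799 to 1.18, edgeR adjusted p = 0.882). Of its 75-base windows, 3.73% also occur in the predicted gene Gm29791. B cell markers were thin in both groups, with a summed level of 26.0 to 29.6 CPM over 6 genes in mtDNA libraries and 21.4 to 28.0 CPM in blank libraries.

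Siglecf (ENSMUSG00000039013) encodes Siglec-F, a marker of mouse eosinophils and alveolar macrophages, and was the least counted of the 5 in mtDNA cells. It had 26, 23 and 31 reads in mtDNA libraries and 27, 53 and 19 reads in blank libraries, or 6.64, 4.93 and 6.56 CPM in mtDNA cells and 6.36, 10.6 and 4.54 CPM in blank cells. Blank 2 was the highest of the 6 libraries and blank 3 the lowest, so the mtDNA range fell inside the blank range. The log2 fold change was -0.29 ± 0.27 (SE; 95% interval of the fold 0.558 to 1.20, edgeR adjusted p = 0.515), and without blank 2 it was 0.14. Eosinophil markers summed to 27.4 to 34.3 CPM in mtDNA libraries and 27.0 to 33.7 CPM in blank libraries. None of the 5 on the list had 0 reads over all libraries together, but only 2, Prg2 and Epx, passed the count filter. Of 4 tested markers of alveolar-type macrophages, 2 rose and 0 fell (all genes: 11.9% higher and 5.98% lower), with a median of log2 0.03. With library totals 2 rose and 1 fell, with a median of log2 -0.09.

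Promoter windows from RefSeq on build GRCm38.p6, reaching from 250 bases before a gene's start to 50 after it, were matched for 4 of the 5 genes, with 2 windows for Siglecg. Siglec1 had no entry. The windows of Siglecf and Cd33 held 3 exact runs of 12 or more bases in the same order, and the runs of 16 and 12 bases that come first occur in no other of the 32851 windows of the table. The last run, of 12 bases, occurs in 9 windows, counting those of Siglecf and Cd33. The 3 runs are shown because they are the one stretch the CD33-related windows share at this length, with the shared runs in capitals.
Siglecf, chr7:43351309-43351390, plus strand, bases -32 to 50 from the start: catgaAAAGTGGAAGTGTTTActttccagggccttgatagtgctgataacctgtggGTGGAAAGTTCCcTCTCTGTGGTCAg
Cd33, chr7:43533247-43533333, minus strand, bases -162 to -76 from the start: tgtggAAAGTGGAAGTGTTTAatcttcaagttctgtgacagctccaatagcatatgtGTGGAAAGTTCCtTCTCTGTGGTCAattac
The letters GAAANNGAAA, the core of interferon-stimulated response elements, searched on both strands, were in 0 of the 5 windows of these genes and in 3.44% of all windows. This says only that those letters are not in these windows.

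Compared per kilobase of the longest annotated transcript, Cd33 was the most abundant of the 5 transcripts in both groups, at 47.3 ± 2.78 CPM per kb in mtDNA cells and 51.9 ± 0.98 CPM per kb in blank cells. Siglece followed at 13.3 ± 2.16 CPM per kb in mtDNA cells and 14.8 ± 1.10 CPM per kb in blank cells. In mtDNA cells Siglec1 came next at 6.81 ± 0.091 CPM per kb, above Siglecg at 4.08 ± 0.28 and Siglecf at 2.32 ± 0.37, and the values of these 3 genes did not overlap between libraries. In blank cells Siglec1 was the lowest of the 5 at 0.58 ± 0.22 CPM per kb, below Siglecg at 4.20 ± 0.31 and Siglecf at 2.75 ± 1.20, which overlapped each other. Siglec1 made up 8.97% to 9.59% of the summed level of the 5 genes in mtDNA libraries and 0.528% to 1.07% in blank libraries. The sum itself overlapped between the groups, at 70.9, 77.0 and 73.5 CPM per kb in mtDNA libraries and 75.9, 76.1 and 70.8 CPM per kb in blank libraries. The choice of length matters for these levels: per kilobase of coding sequence Cd33 stood at 224 ± 13.2 in mtDNA cells and 246 ± 4.66 in blank cells, and Siglec1 at 8.53 ± 0.11 was close to Siglecg at 7.89 ± 0.54 in mtDNA cells.

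**Figure D2:**
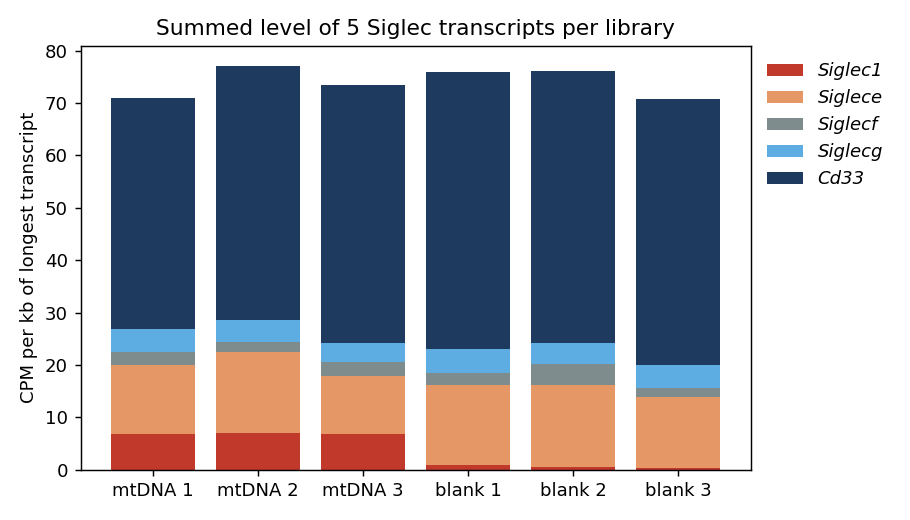
Stacked level of the 5 Siglec transcripts in each library, in CPM per kb of the longest transcript, with mtDNA libraries on the left. Siglec1 fills 8.97% to 9.59% of the bar in mtDNA libraries and at most 1.07% in blank libraries, and Cd33 fills most of every bar.

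The other mouse Siglecs showed no called change. Cd22, a B cell inhibitory receptor, had 14.1 ± 0.84 CPM in mtDNA cells and 14.7 ± 1.93 CPM in blank cells (log2 -0.07 ± 0.15 SE, edgeR adjusted p = 0.812), and 8.08% of its 75-base windows also occur in the overlapping predicted gene Gm29439, on the opposite strand, which had 0 reads. Mag, which encodes a myelin glycoprotein of nerve sheaths, had 10.2 ± 2.23 CPM in mtDNA cells and 10.5 ± 1.49 CPM in blank cells (edgeR adjusted p = 0.938). Siglech, a marker of plasmacytoid dendritic cells, had 1 read in all mtDNA libraries and 5 in all blank libraries, below the count filter. Siglec15 had 0 reads in every library, where 3 reads would be 0.601 to 0.767 CPM in a single library.

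The genes whose levels across the 6 libraries were most like those of Siglec1, by Pearson correlation of log2 CPM over 9634 protein-coding genes with a mean of 5 CPM or more, were Sppl2a (r = 0.999), Csf1r (r = 0.999) and Ccnd2 (r = 0.998). With libraries in only 2 groups such a likeness mostly follows the group difference, and 590 genes reached an r above 0.95. Sppl2a, which encodes an intramembrane protease of lysosomes, averaged 352 CPM in mtDNA cells and 188 CPM in blank cells, and Ccnd2, a cyclin of the G1 phase, 100.3 CPM in mtDNA cells and 36.1 CPM in blank cells. Sppl2a was the only one of these 3 with a promoter entry, and its window held the response element core. The same letters were in 3.44% of all windows, and their part in the likeness to Siglec1 was not tested. The Sppl2a stretch is shown with the motif in capitals.
Sppl2a, GRCm38.p6, chr2:126933209-126933268, minus strand, bases -33 to 27 from the start: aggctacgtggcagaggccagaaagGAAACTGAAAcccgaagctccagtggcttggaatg
Zfp692 (r = 0.999) was most like Cd33, Gdap2 (r = 0.987) most like Siglece, Agpat3 (r = 0.988) most like Siglecf and Itgal, the CD11a integrin chain (r = 0.990), most like Siglecg. None of these 4 members passed the test between the groups. An r above 0.95 was reached by 91 genes for Cd33, 12 for Siglecf, 10 for Siglece and 9 for Siglecg. Each gene named was the highest of 9634 candidates over only 6 libraries, and whether these likenesses would recur was not tested. Among the 6 protein-coding genes nearest to Siglec1 in the annotation, 3 were below the filter, Atrn and Spef1 did not pass (edgeR adjusted p = 0.659 and 0.569), and 1700037H04Rik rose by log2 0.44 ± 0.11 (edgeR adjusted p = 0.00847).

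Of 10 tested genes that act downstream of ITIM receptors, 3 rose and 0 fell (all genes: 11.9% higher and 5.98% lower), with a median log2 fold change of 0.06 that was -0.05 with library totals (2 rose) and -0.01 with upper-quartile factors. Lyn, the kinase that phosphorylates many ITIMs, had 353, 353 and 329 CPM in mtDNA libraries and 249, 261 and 253 CPM in blank libraries, without overlap (1.35-fold, log2 0.44 ± 0.053 SE, edgeR adjusted p = 1.5e-06). Ptpn6, which encodes SHP-1 itself, rose 1.17-fold to 643 ± 5.20 CPM in mtDNA cells, against 551 ± 14.7 CPM in blank cells (edgeR adjusted p = 0.00131), but its adjusted p was 0.0902 with library totals. Ptpn11, which encodes the related phosphatase SHP-2, and the lipid phosphatase gene Inpp5d did not pass (edgeR adjusted p = 0.224 and 0.877). On the activating side, which pairs receptors with adaptors, most of them with an ITAM, and with the kinase Syk, 1 of 4 rose and 0 fell (all genes: 11.9% higher and 5.98% lower). Fcer1g, the Fc receptor gamma chain, averaged 585 ± 73.8 CPM in mtDNA cells and 484 ± 21.7 CPM in blank cells (log2 0.27 ± 0.067 SE, edgeR adjusted p = 0.00587). The Fcer1g change was log2 0.17 without mtDNA 1, and its edgeR adjusted p was 0.0611 without blank 3 and 0.0732 with library totals. Tyrobp, which encodes DAP12, the adaptor of Siglec-H, had 723 ± 27.8 CPM in mtDNA cells and 670 ± 14.5 CPM in blank cells (edgeR adjusted p = 0.115).

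Inhibitory receptors of myeloid cells other than Siglecs, most of them with an ITIM, went both ways. Of 13 tested, 4 rose and 1 fell (all genes: 11.9% higher and 5.98% lower), with a median log2 fold change of 0.06. With library totals, and with upper-quartile factors, 2 rose and 2 fell, and the median was -0.06 and -0.02. Cd300lf, an inhibitory lipid-binding receptor, rose to 461, 452 and 513 CPM in the mtDNA libraries, against 326, 312 and 348 CPM in the blank libraries (1.45-fold, log2 0.53 ± 0.057 SE, edgeR adjusted p = 2.7e-07). Pirb, which binds MHC class I, rose 1.20-fold (edgeR adjusted p = 0.000404). Cd200r1 and the collagen receptor gene Lair1 rose by log2 0.22 ± 0.056 and 0.26 ± 0.075 (SE; edgeR adjusted p = 0.00869 and 0.0175). Both lost the call with upper-quartile factors (adjusted p = 0.0742 and 0.0796), with library totals (0.196 and 0.163) and in DESeq2 (0.0554 and 0.183), and Lair1 also without mtDNA 1 (0.0522), mtDNA 3 (0.0643), blank 2 (0.0712) or blank 3 (0.0609). Pilra, which binds sialylated O-glycans on proteins, was lower by log2 -0.24 ± 0.062 (SE, edgeR adjusted p = 0.00843), with an adjusted p of 0.0654 without mtDNA 3.

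**Figure D3:**
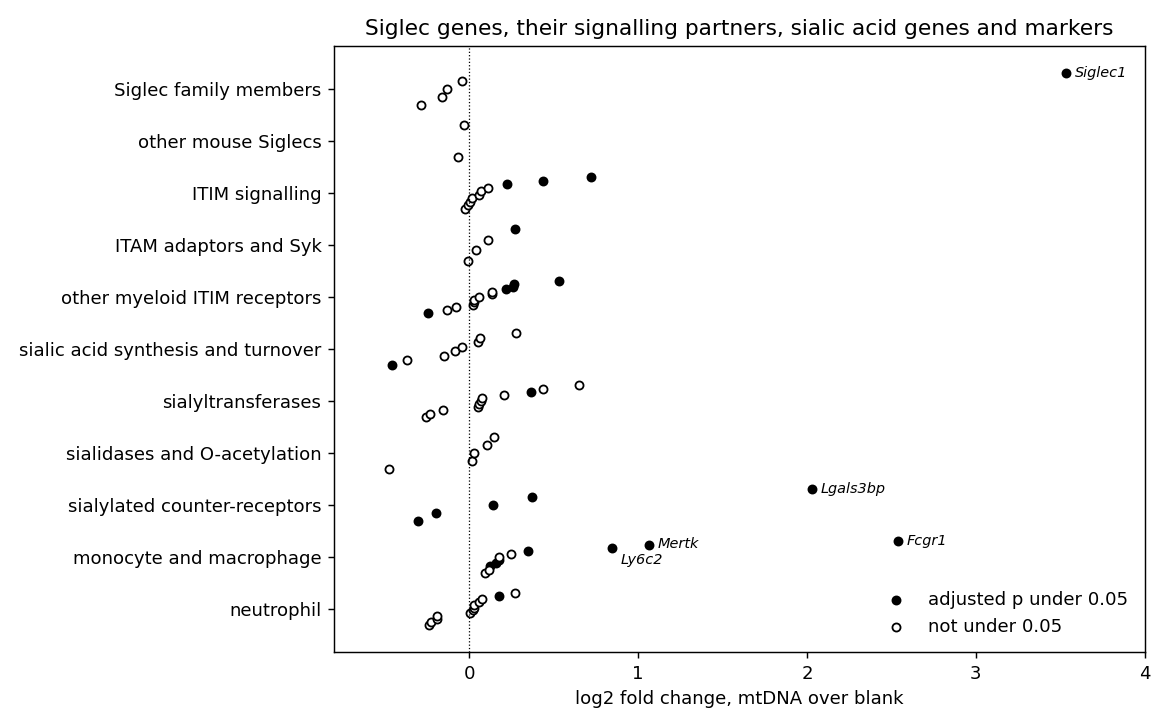
Log2 fold change, mtDNA over blank, of each tested gene in the Siglec family, its signalling partners, the sialic acid lists and the 2 main marker lists; filled points have an edgeR adjusted p under 0.05. Siglec1 stands at 3.54, with Fcgr1 at 2.54 and Lgals3bp at 2.03 the next furthest to the right. The list labelled other myeloid ITIM receptors includes Cd200r1, which has no ITIM. The list labelled ITAM adaptors and Syk includes Hcst, whose product has no ITAM.

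Of 8 tested genes of sialic acid synthesis and turnover, which supply the sugar of Siglec ligands, 0 rose and 1 fell (all genes: 11.9% higher and 5.98% lower), with a median of log2 -0.06 (4 fell with library totals and 3 with upper-quartile factors). The one that fell was Gne, the rate-limiting enzyme of sialic acid synthesis, which had 18.1, 16.3 and 14.6 CPM in mtDNA libraries and 21.2, 23.6 and 22.0 CPM in blank libraries. The groups did not overlap (0.728-fold, log2 -0.46 ± 0.13 SE, edgeR adjusted p = 0.0162), but Gne did not pass in DESeq2 (adjusted p = 0.198) or without mtDNA 3 (0.0836) or blank 2 (0.0745). Slc35a1, the Golgi transporter of activated sialic acid, had log2 -0.37 ± 0.15 (SE, edgeR adjusted p = 0.101), and passed with upper-quartile factors (0.0394) and library totals (0.02). Nanp, which encodes a phosphatase of the same route, had 0 reads in mtDNA libraries and 1 in blank libraries, and 55.2% of its 75-base windows occur in other genes, so its level is uncertain.

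Sialyltransferases, which attach the sugar in the linkages that Siglecs tell apart, had 11 tested genes, of which 1 rose and 0 fell, close to the 11.9% of all genes that rose, with a median of log2 0.07. With library totals 1 rose and 3 fell (median log2 -0.05), and with upper-quartile factors 1 rose and 2 fell. St6galnac4 averaged 50.3 ± 2.14 CPM in mtDNA cells and 38.9 ± 3.42 CPM in blank cells (log2 0.36 ± 0.091 SE, edgeR adjusted p = 0.00694), but had an adjusted p of 0.0776 in DESeq2. None of the 5 tested sialidase and O-acetylation genes, against 17.8% of all genes, passed in edgeR, none passed in DESeq2, and none had an unadjusted p under 0.05 in edgeR. Among them Neu1, the lysosomal sialidase, had 148 ± 6.38 CPM in mtDNA cells and 137 ± 7.44 CPM in blank cells (log2 0.11 ± 0.062 SE, -0.01 with library totals, edgeR adjusted p = 0.261).

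Glycoproteins known or proposed to serve as Siglec counter-receptors moved in both directions, with 3 of 5 tested genes higher and 2 lower (all genes: 11.9% higher and 5.98% lower) and a median of log2 0.14. Lgals3bp, a secreted glycoprotein that binds galectins and, in humans, several Siglecs, had 834, 704 and 731 CPM in mtDNA libraries and 220, 149.9 and 188 CPM in blank libraries. It rose 4.08-fold with no overlap between the groups (log2 2.03 ± 0.090 SE, edgeR adjusted p = 8.73e-14). Cd52, whose soluble form binds Siglec-10 in humans, rose 1.30-fold to 548 ± 50.1 CPM in mtDNA cells, against 422 ± 22.1 CPM in blank cells (edgeR adjusted p = 7.22e-05). Cd24a, a ligand of Siglec-G, moved the other way, with 216, 235 and 217 CPM in mtDNA libraries and 277, 290.1 and 259.8 CPM in blank libraries (0.809-fold, log2 -0.31 ± 0.058 SE, edgeR adjusted p = 0.000481). Spn, which encodes CD43, a counter-receptor of sialoadhesin, was lower, at log2 -0.20 (edgeR adjusted p = 0.0188). Spn did not pass in DESeq2 (adjusted p = 0.112) or without mtDNA 3 (0.0605), blank 2 (0.086) or blank 3 (0.0576). Selplg, the selectin ligand PSGL-1, was at the threshold (log2 0.14 ± 0.049 SE, edgeR adjusted p = 0.0496) and lost the call in 10 of 14 alternatives, with adjusted p of up to 0.768 under library totals, and, among omitted libraries, without mtDNA 1 (0.147), mtDNA 2 (0.0634), mtDNA 3 (0.108), blank 1 (0.0891) or blank 3 (0.202).

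The plot of the 5 genes under each setting shows how far each value moved with the processing. Siglec1 kept its call under all 14 alternatives, at log2 3.32 to 3.82. Siglece ran from log2 -0.30 without mtDNA 2 to -0.04 without mtDNA 3 and never passed. Cd33 was below 0 in every setting and passed in 2 of them.

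**Figure D4:**
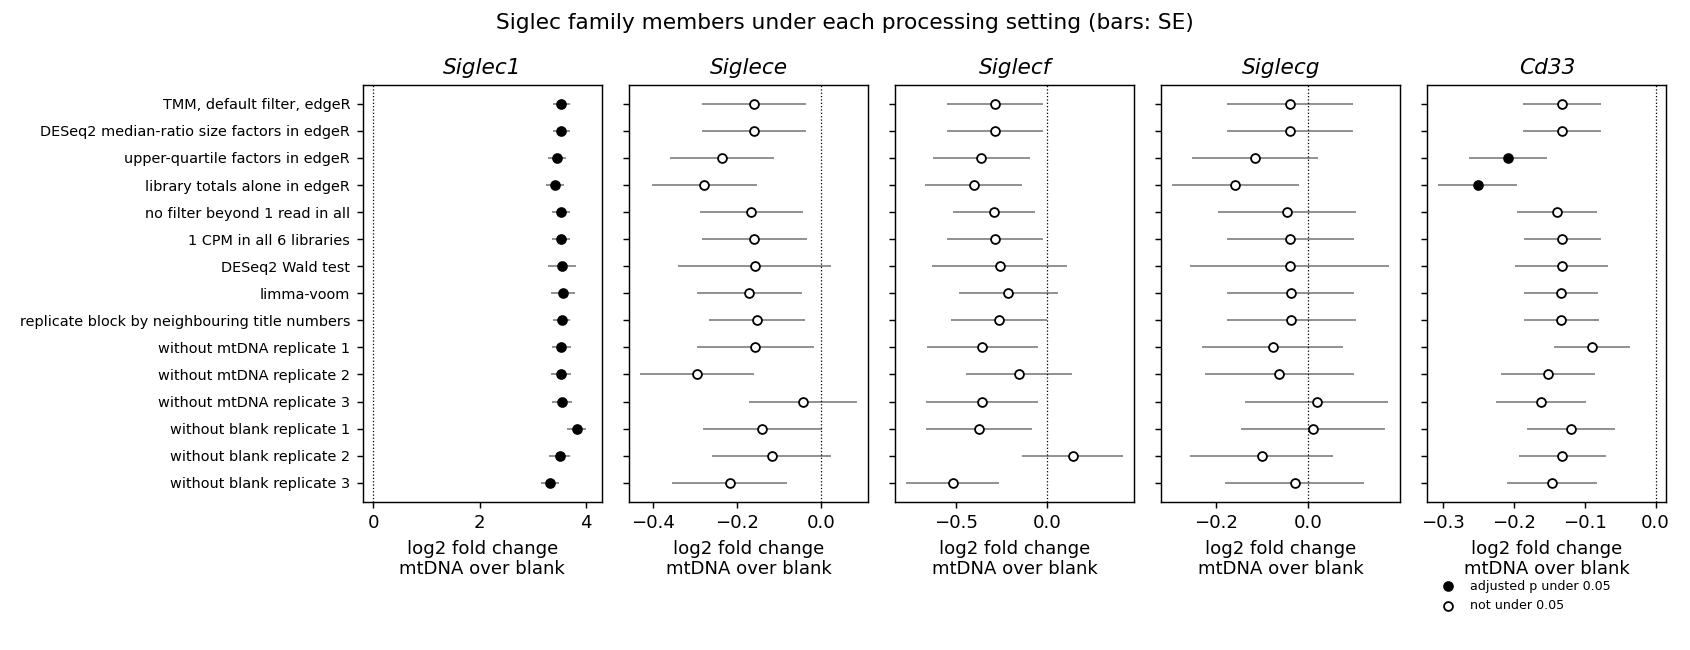
Log2 fold change, mtDNA over blank, of the 5 Siglec genes under the main setting and 14 alternatives, with bars for the SE and filled points for an adjusted p under 0.05; the axes differ between panels. Siglec1 is filled throughout at 3.32 to 3.82, Cd33 is filled only with upper-quartile factors and library totals, and the other 3 are never filled.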

How the data were processed

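The deposited table gives raw read counts, whole numbers, for each Ensembl gene ID and library; the column names are those of STAR's per-gene output, per the file headers. STAR 2.7.10a, FastQC, DESeq2 and GRCm39 are named in the submitters' processing notes. Libraries were poly(A), directional, with single-end 75-base reads, per the labels' protocols. Annotation release and strand setting: not given in the sources used here, so antisense reads cannot be told apart. Reads that map to several places are usually left out of such counts. Of the 55359 rows, 34210 had no read. No row lacked a gene ID.

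Symbols came from GENCODE M21 (GRCm38, 52083 IDs matched), also used for transcript lengths and shared 75-base windows. Neighbours were the 3 RefSeq protein-coding genes on each side in order of start. Counts were fitted on the whole table with edgeR 4.0.16 in R 4.3.3 (default filter, TMM, quasi-likelihood test, two-sided, Benjamini-Hochberg over 11190 genes, threshold 0.05). SE came from the fold change and test statistic. Alternatives used DESeq2 1.42.0, limma 3.58.1, other scalings and filters, and omission of each library; coding length was added after seeing the data. Scripts were tested on simulated data. The 6 pairs of libraries within groups differed by more than counting noise (a chi-square divided by its degrees of freedom was 1.54 to 2.28). A floor is 3 counts and covers counting error only.

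The 5 genes and all lists were chosen with earlier results of these data known. Named were the 5 genes, 4 other Siglecs, called list members (at most 4 rises and 4 falls per list, or the smallest p) and the 3 genes most correlated with each member, of which those given are the first or, for Siglec1, all. Outside that rule, named after their values were seen, are Ptpn11, Inpp5d, Tyrobp, Slc35a1, Nanp, the neighbours of Siglec1 and the markers. One called gene of the ITIM signalling list is counted but not reported here.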

Additional observations from a re-analysis of the deposited data

How the results depend on the processing

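Of the 14 alternatives, Siglec1 and Siglece kept their direction and side of the threshold in all. The Siglec genes called numbered 1, and 2 with upper-quartile factors and with library totals, where Cd33 passed (log2 -0.21 and -0.25); the median of all genes moved down with these scalings, as given above. Calls over all genes were 1996, against 3217 with library totals and 1101 in DESeq2, and 1507 to 1713 with a library left out. Directions of uncalled genes turned when a library was left out: Siglecf ran from log2 -0.52 to 0.14, Siglecg from -0.10 to 0.018 and Mag from -0.23 to 0.11. Neu1 turned to -0.012 with library totals. The cause was not tested. Of the 16 called genes of the pathway lists, 7 kept their call under every alternative and 0 changed sign.

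The titles give no replicate number shared between the groups. With neighbouring title numbers as a replicate block, 2134 genes were called, Siglec1 had log2 3.54 and no Siglec call changed; the paired libraries' deviations from their group means correlated at only 0.040 to 0.045. With 10 to 22 Siglec1 reads and 19 to 53 Siglecf reads per blank library, depth limits the precision of the blank levels of both genes.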
